A study of Mus musculus with 24 samples.

Results

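Ribosome production was followed through 42 mouse genes of RNA polymerase I transcription and ribosome assembly in isolated cardiomyocytes. They were taken by gene name from the 34844 names on the array, each through its brightest detected probe, and all 42 were found. They comprise 7 genes of the polymerase I machinery, 5 of abundant nucleolar proteins, 4 of small nucleolar ribonucleoproteins (snoRNPs), 11 of small subunit assembly and 15 of large subunit assembly. The study asked how cardiomyocytes with and without Top2b, which encodes topoisomerase II beta, respond to doxorubicin, an anthracycline that poisons type II topoisomerases. Its 8 groups of 3 arrays are Top2b-/- mice given doxorubicin, Top2b-/- mice given PBS, WT mice given doxorubicin and WT mice given PBS, each at 16 h and at 72 h after the injection. Doxorubicin was given intraperitoneally at 25 mg/kg. By the labels, all mice had a mixed 129SvEv/C57BL/6 background, were male and were 6 weeks old, the deletion was specific to the heart, and live cardiomyocytes came from a Langendorff preparation. No source used here gives the promoter that drove the deletion.

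Ribosomes are built in the nucleolus. RNA polymerase I copies the ribosomal DNA repeats into a long precursor RNA, helped by the initiation factor encoded by Rrn3 and the promoter and chromatin factor encoded by Ubtf. snoRNPs modify the precursor, and successive sets of helicases, GTPases and scaffold proteins fold and cut it into the small and large subunits. Many of these genes are known targets of Myc, which binds the E-box CACGTG. In the heart, ribosome production rises with hypertrophic growth, and anthracyclines are known to disturb the nucleolus.

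Several facts of the arrays bear on every value. The 75th percentile of signal, to which each array was scaled, lay between 146 and 282 intensity units. Levels are log2 signal relative to that percentile and are compared only within a gene. Whether every array came from its own mouse is not stated in the labels, and p-values therefore cover the spread among arrays, which may be technical. Top2b averaged 2.99 ± 0.28 on the Top2b-/- arrays and 4.20 ± 0.16 on the WT arrays at 16 h (SD, n = 6 each), with no overlap (difference -1.22, exact permutation test, two-sided, p = 0.00216). At 72 h the means were 2.51 ± 0.34 on the Top2b-/- arrays and 3.43 ± 0.17 on the WT arrays (difference -0.92, exact permutation p = 0.00216). That is the smallest p these sample numbers allow, and whether the probe lies in the deleted part is not known here. At 16 h the genotype characteristic of 4 arrays differs from their titles, and the titles were followed. By title, Top2b ran from 2.54 to 3.34 on the Top2b-/- arrays and from 4.03 to 4.39 on the WT arrays of 16 h. By Top2b level, those 4 arrays thus lie with the genotype of their titles. The labels call every mouse male, yet the Y-linked Ddx3y was well above background on 7 arrays only. These were 3 of 3 WT PBS arrays and 1 doxorubicin array of each genotype at 16 h, and 1 PBS array of each genotype at 72 h. A probe of Xist, an RNA of female cells, was well above background at 16 h on 0 of 3 WT PBS and 3 of 3 Top2b-/- PBS arrays. It was so on 2 of 3 doxorubicin arrays of each genotype. At 72 h it was so on 3 of 3 doxorubicin and 2 of 3 PBS arrays of each genotype. The label male is thus in doubt for the 17 arrays without Ddx3y. An Esr1 probe read 5.04 to 6.45 on all 6 Top2b-/- arrays at 16 h, -5.43 to 1.05 on the WT doxorubicin arrays and -5.95 to -5.48 on the WT PBS arrays. At 72 h it read 5.24 to 7.1 on the 6 Top2b-/- arrays, -4.37 to 6.62 on the WT doxorubicin arrays and -6.18 to 8.58 on the WT PBS arrays, well above background on 2 of 3 arrays of each WT group, so that the genotypes overlapped there. Slide 1 of 16 h held all WT arrays and 2 Top2b-/- PBS arrays, and slide 2 held the third Top2b-/- PBS array with all Top2b-/- doxorubicin arrays.

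At 16 h, doxorubicin changed 22 of the 42 genes in WT cardiomyocytes. In Top2b-/- cardiomyocytes 0 members passed the test, as did 0 of all 18751 genes. The difference between the 2 responses passed for 11 members. In WT cells 18 genes rose and 4 fell. The risers were 4 of 5 nucleolar protein genes, 7 of 11 small subunit genes and 7 of 15 large subunit genes, with Ddx21, Tsr1 and Gnl3 up 2.36-fold, 2.24-fold and 2.05-fold. The falls were Rrn3, Polr1e, Pes1 (by its brightest probe only) and Npm3. The 22 genes make 52.4% of the members, against 27.8% of all 18751 genes tested (limma, Benjamini-Hochberg adjusted p under 0.05). Rises made 42.9% of the members against 13.7% of all genes, and falls made 9.52% against 14.1%. The median log2 change, doxorubicin minus PBS, was 0.36 over the members and -0.02 over all genes. All 22 also had no overlap between the 3 doxorubicin and the 3 PBS arrays, as had 24 members in all (19 higher and 5 lower), against 36.7% of all genes (18.2% higher and 18.5% lower). In a bulk sample, fewer cells of a type and less RNA per cell cannot be told apart.

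**Figure D1:**
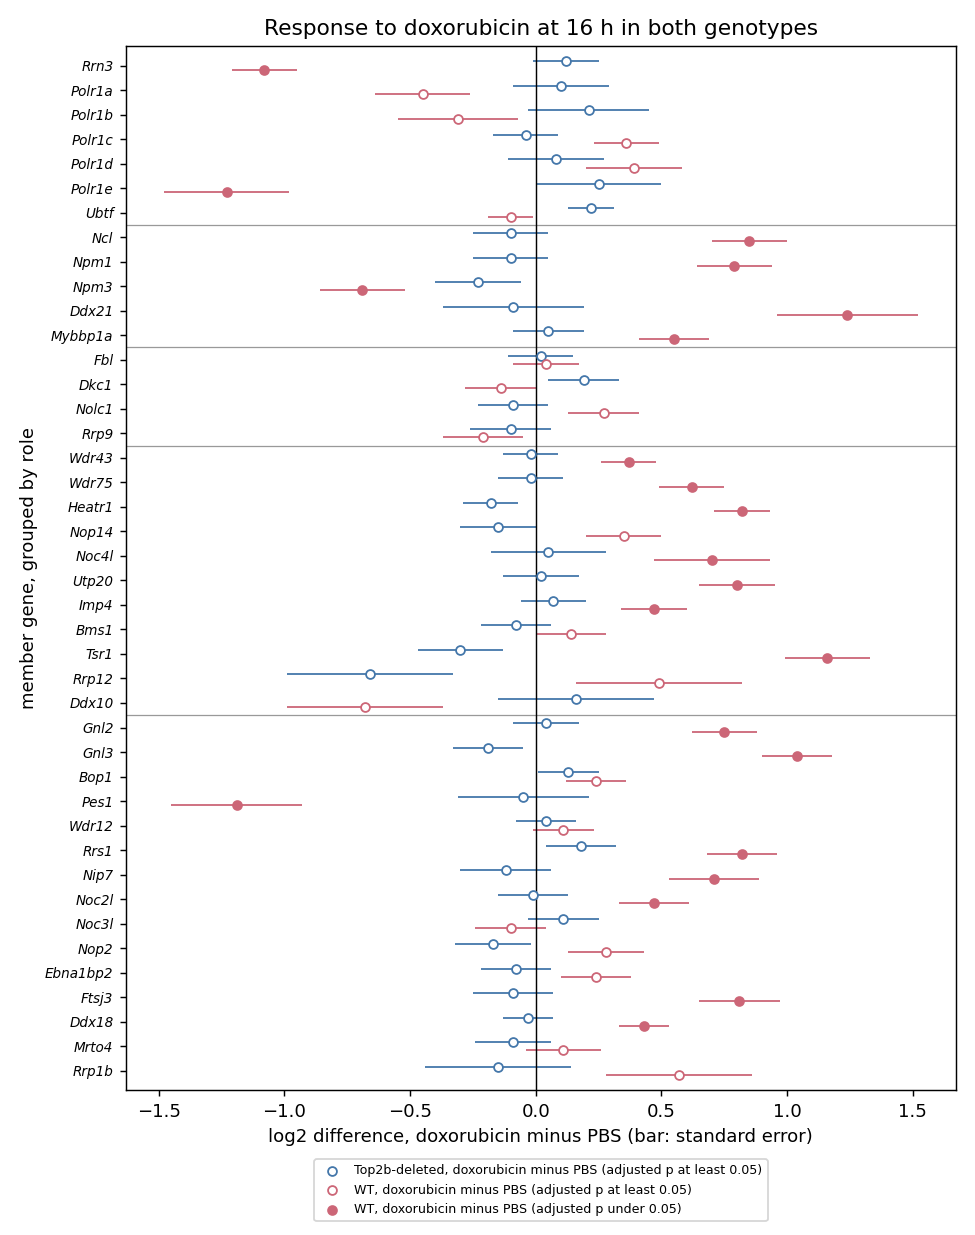
Log2 difference between doxorubicin and PBS at 16 h for each of the 42 genes in Top2b-/- (blue) and WT (red) cardiomyocytes, with standard errors from 3 arrays per group; filled points have an adjusted p under 0.05. In WT cells 18 filled points lie right of 0 and 4 left of it, and no blue point is filled.

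Some labels and arrays set limits on that count. With genotype read from the characteristic rather than the title, 0 members and 0 of all genes passed in limma. In that fit 2248 of all genes had an unadjusted p under 0.05. That reading puts an array with the Top2b level of the other genotype into each group. Without the 4 arrays with differing labels 13 passed (11 higher and 2 lower), 12 of them among the 22. In that fit 19.1% of all genes passed. On slide 1 alone, which holds every WT array, 16 members (12 higher and 4 lower) and 17.6% of all genes passed. With the slide as a block 21 members and 24.5% of all genes passed. Ddx3y was well above background on 3 of 3 WT PBS but 1 of 3 WT doxorubicin arrays, so these groups also differ in Y-linked transcripts. With Y-linked transcripts as a covariate 24 members and 28.2% of all genes passed. With WT arrays limited to those with Y-linked transcripts and Top2b-/- arrays to those without, 30 members and 7882 of all 18749 genes passed. The WT doxorubicin group is then replicate 1 alone, which is assumed to vary like the arrays of the other groups. All 22 kept their sign in every alternative tried, and 16 of them passed whichever of the 12 arrays was left out.

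Of the 7 polymerase I genes 2 fell and none rose in WT cells by their brightest probes, with a median change of -0.31. A dimmer Polr1a probe did rise (1.85 ± 0.45), while the brightest Polr1a probe did not pass. Rrn3 encodes the initiation factor, also called TIF-IA, that makes polymerase I competent to start. Its log2 level was 3.69, 3.69 and 3.72 on the Top2b-/- doxorubicin arrays, against 3.61, 3.52 and 3.61 on the Top2b-/- PBS arrays. It was 2.80, 2.50 and 2.27 on the WT doxorubicin arrays, against 3.54, 3.59 and 3.69 on the WT PBS arrays. Every WT doxorubicin array thus lay below the other 9. The WT change was -1.08 ± 0.13 (SE), a 2.12-fold fall (adjusted p = 0.000369), and Rrn3 was the member with the smallest adjusted p. The Rrn3 probe lies on mouse chromosome 16 (mm9, 13814761 to 13814820, plus strand).

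Polr1e encodes a subunit particular to polymerase I, the mammalian counterpart of yeast Rpa49. It read 3.01, 2.95 and 3.1 on the Top2b-/- doxorubicin arrays, against 2.66, 2.71 and 2.95 on the Top2b-/- PBS arrays. In WT it read 0.82, 1.0 and 1.96 with doxorubicin, against 2.26, 2.57 and 2.62 with PBS. The 3 WT doxorubicin arrays were the lowest of the 12, with replicate 3 nearest to the PBS arrays. The WT change was -1.23 ± 0.25 (adjusted p = 0.00545), and the second Polr1e probe gave -1.21 ± 0.25. The used probe lies on chromosome 4 (mm9, 45044931 to 45044990, plus strand).

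The other 5 polymerase I genes did not pass the test in WT cells. Polr1a, which encodes the largest catalytic subunit, read 3.16, 3.18 and 3.21 on the Top2b-/- doxorubicin arrays and 3.04, 3.06 and 3.16 on the Top2b-/- PBS arrays. It read 2.10, 2.81 and 3.03 on the WT doxorubicin arrays and 3.03, 3.12 and 3.14 on the WT PBS arrays (change -0.45 ± 0.19, adjusted p = 0.112), so that replicate 1 carried most of the difference. Polr1b, the gene of the second-largest subunit, read 0.90, 1.03 and 1.24 on Top2b-/- doxorubicin arrays and 0.79, 0.77 and 0.97 on Top2b-/- PBS arrays. Its WT doxorubicin arrays spread from 0.30 and 0.38 to 1.33 around the WT PBS values of 0.89, 0.99 and 1.07.

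Polr1c and Polr1d encode subunits that polymerases I and III share. Polr1c read 2.59, 2.61 and 2.62 on the Top2b-/- doxorubicin arrays and 2.65, 2.57 and 2.72 on the Top2b-/- PBS arrays. It read 2.63, 3.02 and 2.99 on the WT doxorubicin arrays and 2.34, 2.57 and 2.65 on the WT PBS arrays (0.36 ± 0.13, adjusted p = 0.066). The groups overlapped on 1 array of each. Polr1d read 3.62, 3.78 and 3.74 on Top2b-/- doxorubicin arrays and 3.66, 3.62 and 3.61 on Top2b-/- PBS arrays. It read 4.44, 3.54 and 3.91 on WT doxorubicin arrays and 3.44, 3.53 and 3.74 on WT PBS arrays (0.39 ± 0.19, adjusted p = 0.157). Ubtf read 7.29, 7.17 and 7.15 on the Top2b-/- doxorubicin arrays against 6.99, 6.96 and 7.01 on the Top2b-/- PBS arrays, and 7.22, 7.31 and 7.24 on the WT doxorubicin arrays against 7.39, 7.27 and 7.40 on the WT PBS arrays (WT change -0.10 ± 0.09, adjusted p = 0.475).

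Promoters are shown for 6 members, because Rrn3 and Polr1e moved against most of the assembly genes and the E-box is the motif through which Myc binds many of them. RefSeq promoter windows (GRCm38.p6, 250 bases before to 50 after each start) were matched by symbol for 36 of the 42 genes, all but Bop1, Gnl2, Rrp12, Fbl, Rrs1 and Npm1. The 250 bases before the start are printed 5′ to 3′ on the strand of the gene, with each E-box CACGTG in capitals. This motif is its own reverse complement, so each match counts for both strands. Rrn3 fell and holds 2 E-boxes, beginning 215 and 48 bases before the start. Polr1e fell and holds none.
Rrn3 (chr16:13780449-13780698, plus strand): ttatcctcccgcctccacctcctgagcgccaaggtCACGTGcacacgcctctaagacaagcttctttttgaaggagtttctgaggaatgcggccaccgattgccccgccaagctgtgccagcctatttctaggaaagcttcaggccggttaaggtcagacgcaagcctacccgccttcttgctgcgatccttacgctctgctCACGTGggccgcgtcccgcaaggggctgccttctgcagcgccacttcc
Polr1e (chr4:45018359-45018608, plus strand): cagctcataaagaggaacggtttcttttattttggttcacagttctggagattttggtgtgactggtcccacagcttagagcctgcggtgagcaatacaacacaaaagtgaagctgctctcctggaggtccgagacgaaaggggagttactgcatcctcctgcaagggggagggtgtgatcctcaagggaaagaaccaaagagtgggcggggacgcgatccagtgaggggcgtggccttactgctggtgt
Imp4 and Nop2 also hold an E-box before the start, at 121 and 60 bases. Imp4 rose in WT cells and Nop2 did not pass the test.
Imp4 (chr1:34439579-34439828, plus strand): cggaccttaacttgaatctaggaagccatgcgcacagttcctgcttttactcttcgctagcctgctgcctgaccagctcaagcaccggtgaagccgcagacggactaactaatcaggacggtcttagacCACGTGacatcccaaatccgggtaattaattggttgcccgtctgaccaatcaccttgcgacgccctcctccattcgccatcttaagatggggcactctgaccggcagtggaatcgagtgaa
Nop2 (chr6:125131633-125131882, plus strand): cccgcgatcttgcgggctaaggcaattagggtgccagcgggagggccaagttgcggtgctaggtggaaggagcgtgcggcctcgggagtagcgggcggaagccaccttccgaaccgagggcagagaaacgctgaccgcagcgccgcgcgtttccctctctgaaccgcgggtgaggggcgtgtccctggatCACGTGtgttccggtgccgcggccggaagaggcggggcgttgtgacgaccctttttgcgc
Gnl3 and Ncl rose and hold no CACGTG in these bases.
Gnl3 (chr14:31019132-31019381, minus strand): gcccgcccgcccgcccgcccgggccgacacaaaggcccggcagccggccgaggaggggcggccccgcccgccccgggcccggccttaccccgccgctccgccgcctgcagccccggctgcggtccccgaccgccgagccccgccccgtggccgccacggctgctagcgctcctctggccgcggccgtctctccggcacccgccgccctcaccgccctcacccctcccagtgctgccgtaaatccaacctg
Ncl (chr1:86359456-86359705, minus strand): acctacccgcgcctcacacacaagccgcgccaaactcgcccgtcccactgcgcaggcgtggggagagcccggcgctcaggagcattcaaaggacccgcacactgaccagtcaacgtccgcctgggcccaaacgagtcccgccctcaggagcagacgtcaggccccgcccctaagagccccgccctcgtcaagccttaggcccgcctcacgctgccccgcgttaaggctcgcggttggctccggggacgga

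The motif count is a description of these windows. Over the whole window, 8 of the 36 matched members (22.2%) hold CACGTG, against 8.09% of 27025 genes with a promoter entry. Before the start the shares are 8.33% of members (Rrn3, Imp4 and Nop2) and 7.07% of all genes, and the other 5 members, Mybbp1a, Wdr43, Utp20, Tsr1 and Pes1, have their match 3 to 41 bases into the transcript. By WT response at 16 h, 5 of 15 matched risers, 2 of 4 fallers and 1 of 17 genes that did not pass hold the motif. The letters mark no measured binding.

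All 5 nucleolar protein genes changed in WT cells, 4 upward and 1 downward. Ncl encodes nucleolin, which binds the precursor RNA and nucleolar chromatin. It read 4.84, 4.89 and 4.79 on the Top2b-/- doxorubicin arrays and 4.94, 4.92 and 4.96 on the Top2b-/- PBS arrays. It read 5.73, 5.33 and 5.16 on the WT doxorubicin arrays and 4.40, 4.69 and 4.57 on the WT PBS arrays (0.85 ± 0.15, adjusted p = 0.00213). Its WT doxorubicin arrays were the 3 highest of 12. A second kept Ncl probe gave 0.37 ± 0.22 and did not pass (adjusted p = 0.242, limma on single probes). Npm1 encodes nucleophosmin, a histone and ribosome chaperone. It read 6.11, 6.03 and 5.75 on the Top2b-/- doxorubicin arrays and 6.25, 6.09 and 5.86 on the Top2b-/- PBS arrays, against 6.34, 6.12 and 6.55 on the WT doxorubicin arrays and 5.46, 5.55 and 5.63 on the WT PBS arrays (WT change 0.79 ± 0.15, adjusted p = 0.00393). WT PBS arrays were the lowest of the 12, and the WT doxorubicin arrays overlapped the Top2b-/- PBS arrays.

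Ddx21 encodes an RNA helicase of the nucleolus. It read 1.74, 1.48 and 1.16 on the Top2b-/- doxorubicin arrays and 1.64, 1.55 and 1.45 on the Top2b-/- PBS arrays. With 3.08, 1.93 and 2.02 on the WT doxorubicin arrays and 0.81, 1.15 and 1.35 on the WT PBS arrays, it had the largest fitted rise of the 42 genes (1.24 ± 0.28, adjusted p = 0.00948). Replicate 1 was the highest. That ranking holds for the brightest probe of each gene. The other kept Ddx21 probe gave 0.55 ± 0.12, and a second Nip7 probe gave 1.25 ± 0.14. Mybbp1a, whose product is a nucleolar protein that binds Myb and other transcription factors, rose by 0.55 ± 0.14 (adjusted p = 0.0137). Npm3, a relative of nucleophosmin that binds it, went the other way. It read -1.70, -1.38 and -1.17 on the Top2b-/- doxorubicin arrays and -1.35, -1.10 and -1.12 on the Top2b-/- PBS arrays. It read -1.49, -2.04 and -1.81 on the WT doxorubicin arrays and -1.04, -1.08 and -1.14 on the WT PBS arrays (-0.69 ± 0.17, adjusted p = 0.0122).

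No gene of the snoRNP set passed the test in WT cells at 16 h, where their changes ran from -0.21 to 0.27. Fbl encodes fibrillarin, the methyltransferase of box C/D particles, and differed by 0.04 ± 0.13. Dkc1 encodes dyskerin, the pseudouridine synthase of box H/ACA particles, and differed by -0.14 ± 0.14. Rrp9, a protein of the U3 particle, differed by -0.21 ± 0.16, and Nolc1, a snoRNP chaperone, by 0.27 ± 0.14.

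In small subunit assembly 7 of 11 genes rose and none fell, with a median change of 0.49. Tsr1 encodes a late assembly factor of the pre-small subunit. It read 1.28, 1.37 and 1.28 on the Top2b-/- doxorubicin arrays and 1.69, 1.60 and 1.55 on the Top2b-/- PBS arrays. It read 2.17, 2.11 and 1.62 on the WT doxorubicin arrays and 0.47, 0.95 and 0.99 on the WT PBS arrays (1.16 ± 0.17, adjusted p = 0.00109). WT PBS arrays were again the lowest of 12. Heatr1, the counterpart of yeast Utp10, encodes a large scaffold of the early processing complex. It read 2.60, 2.73 and 2.82 on the Top2b-/- doxorubicin arrays and 2.90, 2.91 and 2.90 on the Top2b-/- PBS arrays, against 3.29, 3.47 and 3.30 on the WT doxorubicin arrays and 2.37, 2.55 and 2.67 on the WT PBS arrays (WT change 0.82 ± 0.11, adjusted p = 0.000681). The 3 WT doxorubicin arrays were the highest of 12.

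The other risers of the small subunit set were smaller or more spread. Utp20, a processing scaffold, rose by 0.80 ± 0.15, and Wdr75 and Wdr43, which belong to the subcomplex that first meets the precursor, rose by 0.62 ± 0.13 and 0.37 ± 0.11. Wdr43 passed in 5 of 12 fits with an array left out, and its adjusted p was 0.0565 with the replicate number as a block. Imp4, a protein that works with the U3 snoRNA, rose by 0.47 ± 0.13. Noc4l, a nucleolar assembly factor, read 2.14, 1.14 and 1.23 on the WT doxorubicin arrays and 0.67, 0.88 and 0.86 on the WT PBS arrays (0.70 ± 0.23, adjusted p = 0.0429), and passed in 3 of 12 fits with an array left out. Replicate 1 also stood highest for Rrp12, an export factor, at 1.0 against 0.01 and 0.02 on the other WT doxorubicin arrays and -0.78, -0.05 and 0.41 on the WT PBS arrays. Ddx10, a helicase gene, read -1.76, -1.84 and -0.39 on the WT doxorubicin arrays and -0.89, -0.50 and -0.57 on the WT PBS arrays (-0.68 ± 0.31, adjusted p = 0.133). Neither Rrp12, Ddx10, Nop14 nor the GTPase gene Bms1 passed.

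In large subunit assembly 7 of 15 genes rose and 1 fell, with a median of 0.43. Gnl3 encodes nucleostemin, a nucleolar GTPase. It read 0.96, 1.05 and 1.03 on the Top2b-/- doxorubicin arrays and 1.19, 1.17 and 1.23 on the Top2b-/- PBS arrays. It read 2.02, 1.94 and 1.80 on the WT doxorubicin arrays and 0.57, 1.02 and 1.06 on the WT PBS arrays (1.04 ± 0.14, adjusted p = 0.000554), a 2.05-fold rise with the WT doxorubicin arrays above all others. Its relative Gnl2 read 2.98, 3.04 and 2.90 on the Top2b-/- doxorubicin arrays and 2.97, 2.90 and 2.95 on the Top2b-/- PBS arrays, against 3.82, 3.32 and 3.54 on the WT doxorubicin arrays and 2.72, 2.88 and 2.85 on the WT PBS arrays (WT change 0.75 ± 0.13, adjusted p = 0.00224). Rrs1, which helps load the smallest ribosomal RNA, rose by 0.82 ± 0.14, and Ftsj3, a methyltransferase gene, by 0.81 ± 0.16. Nip7, Noc2l and the helicase gene Ddx18 rose by 0.71 ± 0.18, 0.47 ± 0.14 and 0.43 ± 0.10.

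Pes1, Bop1 and Wdr12 encode the 3 partners of the PeBoW complex of large subunit maturation, and only Pes1 passed. It read 2.61, 2.73 and 2.81 on the Top2b-/- doxorubicin arrays and 2.73, 2.70 and 2.88 on the Top2b-/- PBS arrays. It read 0.95, 1.22 and 2.16 on the WT doxorubicin arrays and 2.34, 2.70 and 2.86 on the WT PBS arrays (-1.19 ± 0.26, adjusted p = 0.00813). The other kept Pes1 probe did not fall (0.36 ± 0.22). Bop1 differed by 0.24 ± 0.12 and Wdr12 by 0.11 ± 0.12. For both Pes1 and Polr1e, replicate 3 was the WT doxorubicin array nearest to the PBS arrays.

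**Figure D2:**
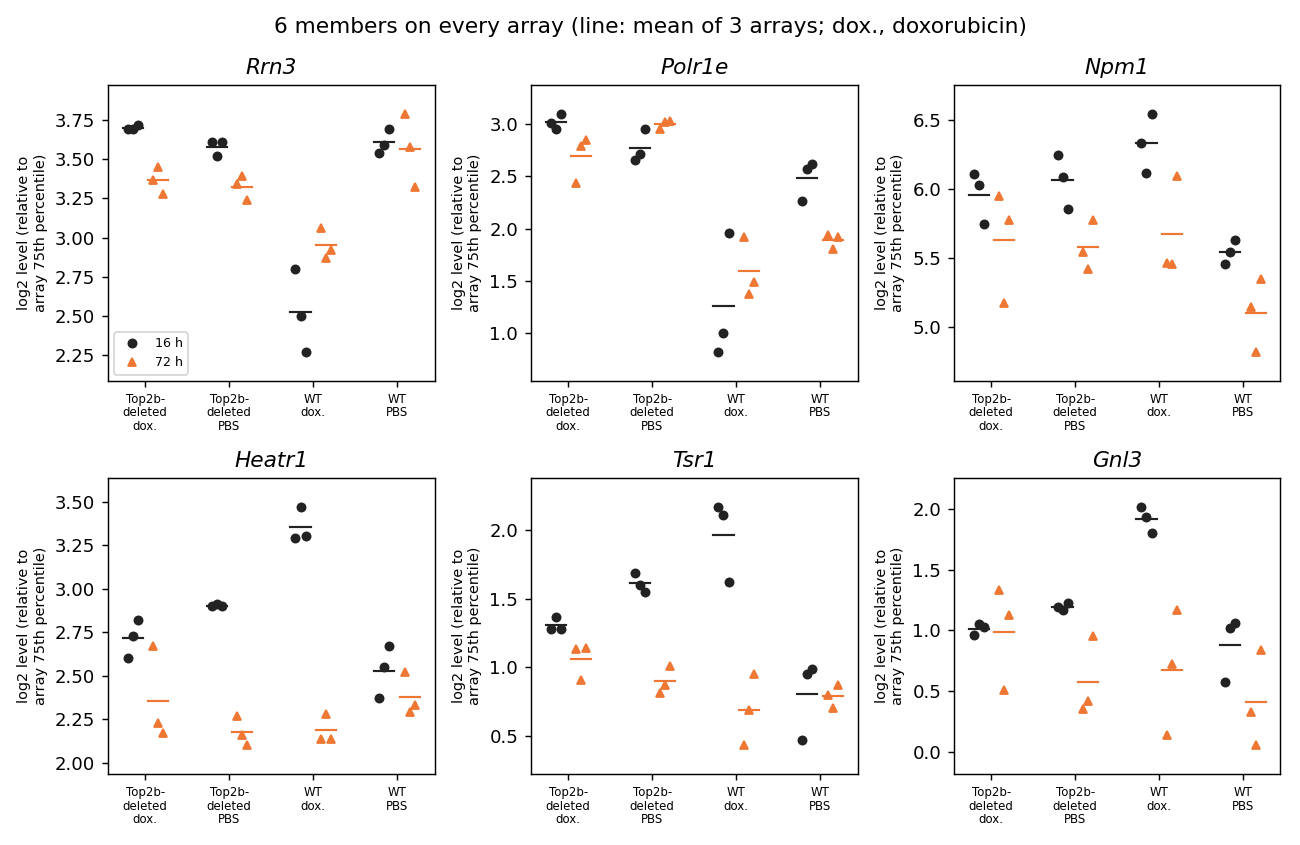
Log2 levels of 6 members, relative to the 75th percentile of each array, on all 24 arrays by genotype and treatment; circles are 16 h, triangles 72 h and lines the mean of 3 arrays. At 16 h the WT doxorubicin arrays are the lowest for Rrn3 and Polr1e and the highest for Heatr1 and Gnl3, and at 72 h Polr1e is higher in both Top2b-/- groups than in both WT groups.

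In Top2b-/- cardiomyocytes 0 of 42 members passed the test at 16 h, as did 0.0% of all genes, and 1 member, Ubtf, had an unadjusted p under 0.05 (change 0.22 ± 0.09, limma). At that level 791 of all 18751 genes passed. The members' changes ran from -0.66 for Rrp12 to 0.25 for Polr1e, with a median of -0.03. The arrays of the groups did not overlap for 15 members (6 higher and 9 lower), against 17.8% of all genes (9.8% higher and 7.96% lower). With the replicate number as a block 0 members passed.

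The responses themselves differed between genotypes for 11 members, or 26.2% against 11.4% of all genes (6.17% positive and 5.27% negative). The Top2b-/- response minus the WT response was positive for Rrn3 (1.21 ± 0.19, adjusted p = 0.00412) and Polr1e (1.47 ± 0.36, adjusted p = 0.0262), the 2 polymerase I genes that fell in WT cells. It was negative for 9 genes that rose in WT cells. Among these Tsr1 differed by -1.47 ± 0.25, Gnl3 by -1.22 ± 0.19, Heatr1 by -1.01 ± 0.16 and Ncl by -0.95 ± 0.21. The others were Npm1, Wdr75, Utp20, Gnl2 and Ftsj3, from -0.64 to -0.90. The second Ncl probe gave -0.66 ± 0.31 and did not pass (adjusted p = 0.193, limma on single probes). The median over the members was -0.40 and over all genes 0.00. With the slide as a block 3 members passed, namely Rrn3 (adjusted p = 0.0471), Gnl3 (adjusted p = 0.0422) and Heatr1 (adjusted p = 0.0485), where 1.99% of all genes did, and 5 of the 11 passed whichever array was left out. No slide holds all 4 groups, so no value within a slide can be had. The count was 22 without WT doxorubicin replicate 3, where 25.3% of all genes passed. It was 5 without Top2b-/- PBS replicate 1 or 2 or Top2b-/- doxorubicin replicate 2 or 3. There 5.39% to 5.88% of all genes passed.

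Under PBS at 16 h, the genotypes differed for 6 members, or 14.3% against 12.5% of all genes (6.77% higher and 5.68% lower). Tsr1 (0.81 ± 0.17), Nolc1 (0.54 ± 0.14), Wdr75 (0.48 ± 0.13) and Wdr43 (0.40 ± 0.11) were higher in Top2b-/- than in WT cells, and Imp4 (-0.57 ± 0.13) and Ubtf (-0.37 ± 0.09) were lower. These 6 adjusted p-values ran from 0.0153 to 0.0384. Ddx3y was well above background on 3 of 3 WT PBS arrays and 0 of 3 Top2b-/- PBS arrays. Genotype and the sex signal of the arrays therefore cannot be told apart in this comparison. The arrays did not overlap for 24 members, 22 of them higher in Top2b-/-, against 48.4% of all genes (24.1% higher and 24.3% lower). WT PBS replicate 1 was low across the set, with 2 of 42 members above the WT PBS mean and a median deviation of -0.16, against 35 and 38 members on the other WT PBS arrays. On slide 1 alone 0 members and 4.1% of all genes passed. With the slide as a block in limma 1 member (Tsr1, adjusted p = 0.0427) and 6.51% of all genes passed. No call held in every fit with an array left out. Without WT PBS replicate 1 the count was 1 (6.28% of all genes) and without replicate 2 it was 1 (6.73%). Without Top2b-/- PBS replicate 1 or 2 the count was 0 (5.1% and 5.4% of all genes). It was 10 without WT doxorubicin replicate 1 (20.4% of all genes). This comparison shares the PBS arrays with those above, so its values are not independent of them.

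**Figure D3:**
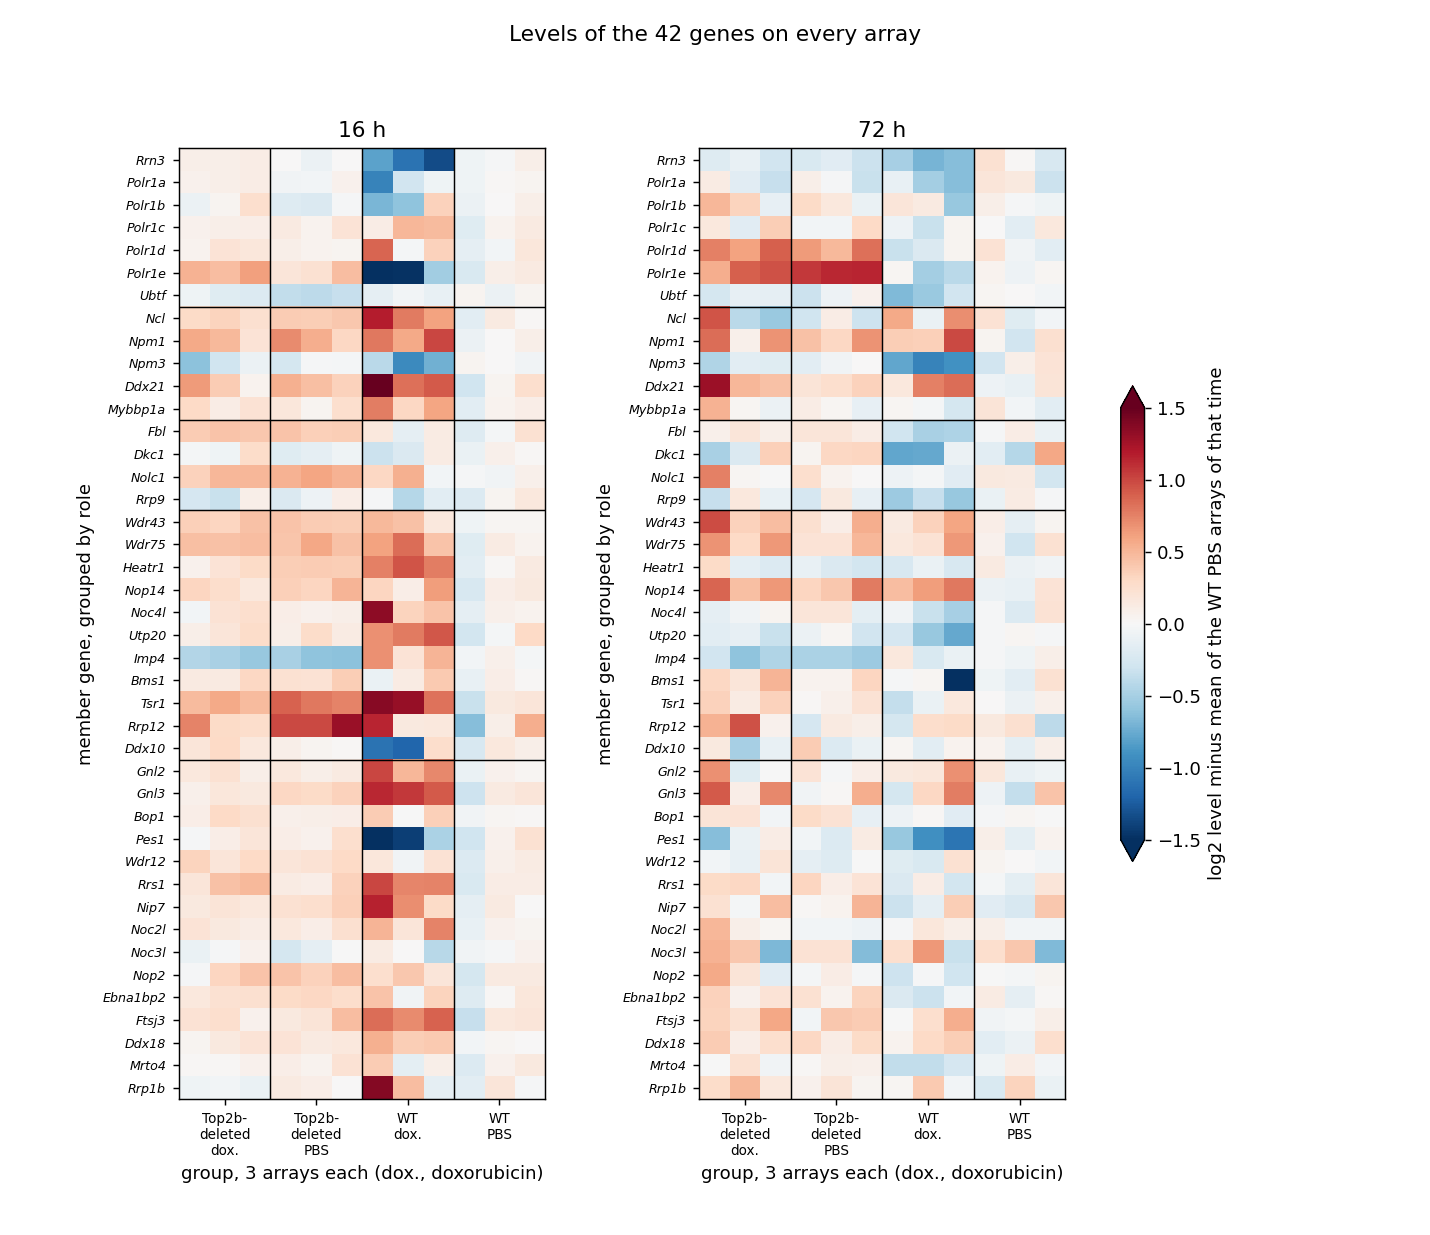
Level of each member on each array, as the log2 difference from the mean of the WT PBS arrays of the same time, with genes down the page by role and arrays across it by group. At 16 h Rrn3, Polr1e and Pes1 are below 0 and Heatr1, Tsr1 and Gnl3 above it on all 3 WT doxorubicin arrays, and at 72 h Polr1e is above 0 on all 6 Top2b-/- arrays.

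At 72 h, on other slides, 1 member passed in WT cells. Npm3 read -2.15, -1.86 and -1.88 on the Top2b-/- doxorubicin arrays and -1.86, -1.75 and -1.69 on the Top2b-/- PBS arrays. It read -2.48, -2.70 and -2.61 on the WT doxorubicin arrays and -1.99, -1.61 and -1.50 on the WT PBS arrays, a fall of 0.90 on the log2 scale (-0.90 ± 0.16, adjusted p = 0.0293). That 1 of 42 is 2.38%, against 2.69% of all 19670 genes (1.75% lower), and the members' median was -0.09 against -0.08 over all genes. Npm3 was the only member that passed in WT cells at both times. Markers of other cells moved in the same comparison. Of 5 tested neutrophil markers 3 rose (median 3.45), with sums of linear level of 128 to 230 in WT doxorubicin and 104 to 247 in WT PBS arrays. No marker of the other lists passed, though the median was 1.63 over 7 endothelial and -2.79 over 3 erythroid markers, and the erythroid sums, 0.239 to 1.27 in WT doxorubicin and 1.28 to 10.6 in WT PBS arrays, did not overlap. Cardiomyocyte markers summed to 7140 to 10400 in WT doxorubicin and 9290 to 14200 in WT PBS arrays.

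Rrn3 and Pes1, which fell at 16 h, were also lower on every WT doxorubicin array at 72 h by their used probes, without passing. Rrn3 read 3.06, 2.87 and 2.92 on the WT doxorubicin arrays and 3.79, 3.58 and 3.32 on the WT PBS arrays (-0.62 ± 0.14, adjusted p = 0.0505). Pes1 read 1.42, 1.07 and 0.90 on the WT doxorubicin arrays and 2.08, 1.85 and 2.05 on the WT PBS arrays (-0.86 ± 0.21, adjusted p = 0.0553). The other kept Pes1 probe was not lower at 72 h (0.17 ± 0.16, adjusted p = 0.555, limma on single probes). With the slide as a block in limma 7 members (1 higher and 6 lower) and 13.4% of all genes passed. The members included Rrn3 (adjusted p = 0.0182) and Pes1 (adjusted p = 0.0298). On slide 1 alone 0 members and 3.99% of all genes passed. None of the 18 risers of 16 h passed at 72 h. In all, 12 members had no overlap between the WT groups at 72 h (3 higher and 9 lower), against 26.0% of all genes (9.05% higher and 16.9% lower). The 2 times lie on different slides, so no test between them was made.

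Leaving out arrays moved the 72 h count in WT cells. It was 0 without WT doxorubicin replicate 3 or 4, WT PBS replicate 2 or 3, or Top2b-/- PBS replicate 2 or 3. In those fits 0.00508% to 0.564% of all genes passed. It was 4 without WT doxorubicin replicate 2, 3 without WT PBS replicate 4, and 2 without Top2b-/- doxorubicin replicate 2. There 6.25%, 7.89% and 4.24% of all genes passed, against 2.69% with all arrays. In Top2b-/- cells 0 members passed at 72 h, as did 0.0% of all genes, and 0 had an unadjusted p under 0.05 where 429 of all genes did. The Top2b-/- groups did not overlap for 3 members (2 higher and 1 lower), against 7.12% of all genes (2.87% higher and 4.25% lower). The difference between the responses passed for 0 members and 0.0% of all genes at 72 h in limma, and 4 members (Rrn3, Npm3, Fbl and Pes1) and 1389 of all genes had an unadjusted p under 0.05.

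Polr1e was the member that separated the genotypes under PBS at 72 h. It read 2.44, 2.79 and 2.85 on the Top2b-/- doxorubicin arrays and 2.95, 3.02 and 3.03 on the Top2b-/- PBS arrays. It read 1.92, 1.38 and 1.49 on the WT doxorubicin arrays and 1.94, 1.81 and 1.92 on the WT PBS arrays. All 6 Top2b-/- arrays thus lay above all 6 WT arrays, and under PBS the difference was 1.11 ± 0.17 (adjusted p = 0.00654). This 1 call is 2.38% of members against 2.15% of all genes (1.07% higher). The PBS arrays of the genotypes did not overlap for 7 members (5 higher and 2 lower), against 19.6% of all genes (11.2% higher and 8.44% lower). With the replicate number as a block in limma, 3 members passed, as did 4.62% of all genes. They were Polr1e (adjusted p = 0.0107), Polr1d (adjusted p = 0.0445) and Imp4 (adjusted p = 0.0475). Same-numbered arrays deviated together here, but replicate 4 of each group is also its slide 2 array. Pairing and slide therefore cannot be told apart. On slide 1 alone 0 members and 3.11% of all genes passed. Among the arrays without Y-linked transcripts 0 members and 1.28% of all genes passed. No marker of the other cell types passed in this comparison.

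Imp4 and Polr1d (adjusted p = 0.111 and 0.0743 under PBS at 72 h, limma without that block) also separated the genotypes, Imp4 downward and Polr1d upward in Top2b-/- cells. Imp4 read 1.34, 1.02 and 1.17 on the Top2b-/- doxorubicin arrays and 1.15, 1.15 and 1.08 on the Top2b-/- PBS arrays. It read 1.78, 1.40 and 1.53 on the WT doxorubicin arrays and 1.61, 1.56 and 1.71 on the WT PBS arrays (Top2b-/- PBS minus WT PBS -0.50 ± 0.14). At 16 h it was also lower on all 6 Top2b-/- arrays, at 1.46 to 1.64, than on all 6 WT arrays. The 72 h probe of Polr1d, which the files annotate to another RefSeq transcript than the 16 h probe, read 3.62 to 4.03 on the Top2b-/- arrays and 2.80 to 3.35 on the WT arrays.

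Single arrays and slides also stood out at 72 h. Bms1 read -2.65 on WT doxorubicin replicate 4, against 0.28 and 0.33 on the other WT doxorubicin arrays and 0.14 to 0.53 on the WT PBS arrays. Noc3l was lower on replicate 4 of every group, which is the slide 2 array, at 0.55 to 0.89, than on the replicates of slide 1, at 1.44 to 1.87.

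Probes of the same gene did not always move together. At 16 h, 16 members had more than 1 kept probe, and in WT cells the probes had the same sign for 10 of them and both signs for 6. Npm1 is the case with the most probes, and its 4 probes gave 0.79 to 0.85. Polr1a is the case of widest disagreement. Its brightest probe, at chromosome 6 (mm9, 71929251 to 71929310), gave -0.45 ± 0.20 in the fit of single probes. Another probe, at 71904893 to 71904952, annotated to an Ensembl transcript of the gene, gave 1.85 ± 0.45 (adjusted p = 0.0123). That probe read -1.07, -0.81 and -2.27 on the WT doxorubicin arrays and -2.97, -2.90 and -3.82 on the WT PBS arrays, the last of these not well above background.

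The fall of Pes1 rests on 1 of its 2 probes. The other Pes1 probe read -0.76, -1.46 and -0.76 on the WT doxorubicin arrays and -1.64, -1.01 and -1.40 on the WT PBS arrays (0.36 ± 0.22, adjusted p = 0.258). Polr1d has a probe for each of 2 transcripts. The probe used at 72 h gave -0.10 ± 0.15 in WT cells at 16 h, and read 3.89 to 4.30 on the Top2b-/- arrays and 2.74 to 3.22 on the WT arrays of that time. The probe used for Wdr12 is annotated to chromosome 7 in the files although the gene lies on chromosome 1, and its chromosome 1 probe gave -0.45 ± 0.22. The used Noc2l probe carries no position in the files.

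**Figure D4:**
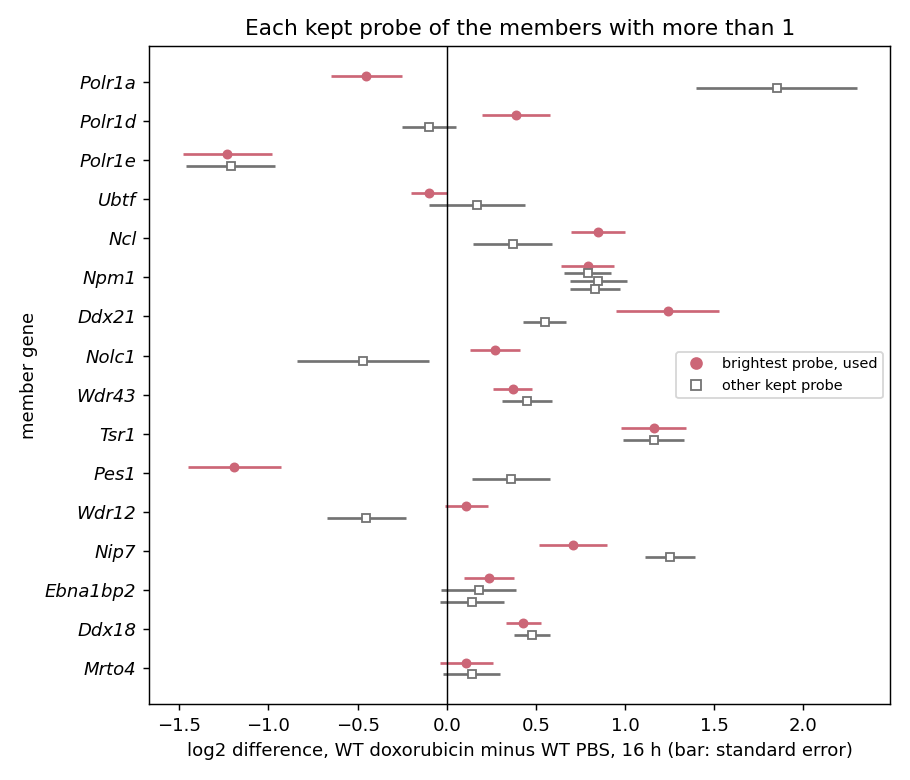
Log2 difference between WT doxorubicin and WT PBS at 16 h for every kept probe of the 16 members with more than 1. Bars are limma standard errors, from 1 spread per probe shared by the 4 groups of 3 arrays. Filled circles mark the brightest probe, which the other values use, and open squares the rest. The 4 Npm1 probes lie together, while the probes of Polr1a, Pes1, Wdr12, Nolc1, Polr1d and Ubtf lie on both sides of 0.

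Other genes of the same machinery, from wider lists, are given for comparison. Their counts stand against 13.7% of all genes higher and 14.1% lower in WT cells at 16 h. Of 108 other ribosome assembly genes tested there, 46 rose (42.6%) and 2 fell (1.85%), with a median of 0.29. Ddx27, a helicase of large subunit assembly, rose by 1.34 ± 0.10 (adjusted p = 3.47e-05) and Gtpbp4, a GTPase of the same path, by 1.36 ± 0.14. Pwp2, a scaffold of small subunit processing, rose by 0.96 ± 0.10, and Rrp36 by 1.11 ± 0.13. In Top2b-/- cells these 4 differed by 0.01 to 0.07. Of 17 other polymerase I factors, 6 rose (35.3%) and 1 fell (5.88%). Taf1c, Taf1d and Taf1a, which belong to the selectivity factor that recognises the ribosomal DNA promoter, rose by 1.25 ± 0.13, 1.89 ± 0.29 and 0.61 ± 0.13. Sirt7, a nucleolar deacylase, rose by 1.55 ± 0.16.

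The other nuclear polymerases had median changes of 0.14 for RNA polymerase II and 0.27 for RNA polymerase III. Of 7 RNA polymerase II subunit genes Polr2a rose (0.70 ± 0.23, adjusted p = 0.0434), and the risers among 14 RNA polymerase III genes included Crcp (0.68 ± 0.10) and Polr3e (1.43 ± 0.32). In the network of Myc and Max, whose dimer binds the E-box, 4 of 9 tested genes rose (44.4%) and 1 fell (11.1%). Myc read -1.36, -1.94 and -2.35 on the Top2b-/- doxorubicin arrays and -0.32, -0.99 and -1.57 on the Top2b-/- PBS arrays. It read 1.33, -0.12 and -0.51 on the WT doxorubicin arrays and -2.95, -1.41 and -2.88 on the WT PBS arrays, a rise of 2.65 ± 0.55 (adjusted p = 0.00586). Replicate 1 of WT doxorubicin was the highest of its group for Myc and for many members, such as Ddx21, Ncl, Gnl2 and Rrs1. For other members, such as Heatr1, Npm1 and Ftsj3, it was not. This replicate is 1 of the 4 arrays whose genotype labels differ. Max rose by 0.88 ± 0.14 and Mxd4, a partner of Max, by 2.42 ± 0.34, while Mycn fell (-3.53 ± 0.51). In Top2b-/- cells at 16 h 0 genes of these 5 lists passed in limma, where Mycn differed by -1.74 and Myc by -0.92.

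Markers of other cells moved with the WT response at 16 h. Of 4 tested neutrophil markers of 6, 3 rose, while the summed linear level of the list was 66.6 to 99.5 in WT doxorubicin and 80.5 to 82.5 in WT PBS arrays, and Mmp8 and Retnlg were too dim to be kept. Of 7 tested fibroblast markers of 8, 4 fell, with sums of 22.0 to 50.3 in WT doxorubicin and 24.1 to 35.7 in WT PBS arrays and Tcf21 too dim. Of 7 smooth muscle and pericyte markers 4 fell, and their sums, 95.1 to 106 in WT doxorubicin and 152 to 185 in WT PBS arrays, did not overlap. Of 7 endothelial markers 2 fell, with sums of 19.5 to 28.9 in WT doxorubicin and 25.4 to 34.2 in WT PBS arrays. Of 6 macrophage markers tested 0 passed, with Cd163 too dim, and 0 of 3 lymphocyte and 0 of 3 erythroid markers passed. Cardiomyocyte markers, all 9 kept, summed to 9010 to 12100 in WT doxorubicin and 11200 to 12500 in WT PBS arrays, and 1 of 9 fell. Of 7 proliferation markers, Top2a, Ccnb1, Bub1, Aurkb and Cdk1 were too dim to be kept. Between the genotypes under PBS at 16 h, 4 of 7 fibroblast markers were higher in Top2b-/- cells, with sums of 45.3 to 96.8 in Top2b-/- PBS and 24.1 to 35.7 in WT PBS arrays. In the same comparison 2 of 7 endothelial markers were lower, and of 7 smooth muscle and pericyte markers 2 were lower and 1 was higher. No cardiomyocyte marker passed, but 8 of 9 were lower without overlap, with sums of 9170 to 9600 in Top2b-/- PBS and 11200 to 12500 in WT PBS arrays. The part of these markers, of Y-linked transcripts and of the Esr1 signal in the members' values was not tested beyond the alternatives given.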

How the data were processed

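Gene expression was measured on 24 Agilent 1-colour arrays. The authors deposited, per the file headers, the background-subtracted and detrended signal intensity of each spot (Agilent Feature Extraction 10.7.3.1, probes placed on mm9) with flags for spots well above background and for outliers. A deposited value table holds the ratio of that signal to the array median, as setting the columns beside the scanner values showed. Per array 42.9% to 52.6% of spots were well above background, 0 were saturated, and outlier spots were dropped. The number of arrays limits the precision.

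Here log2 of the deposited processed intensity minus the 75th percentile of each array was used. Probes entered at a time if every array of some group had them well above background, and the brightest of these stood for its gene. All 42 members were kept, and all were well above background on all 24 arrays. The 12 arrays of each time (4 groups) were fitted with limma 3.58.1 in R 4.3.3 (lmFit, contrasts.fit, eBayes), with Benjamini-Hochberg adjustment over all genes and a threshold of 0.05. Changes are log2 ± SE with 3 arrays per group. The SE rests on 1 spread per gene shared by the 4 groups of a time, so both genotypes have the same SE. The groups themselves differed in spread. At 16 h the SD of Polr1e was 0.61 on WT doxorubicin and 0.08 on Top2b-/- doxorubicin arrays. That of Ubtf was 0.05 and 0.08. In simulated data (WT doxorubicin against PBS), 47% of 100 genes changed by 1 log2 unit and 83% of 100 changed by 2 were recovered at 16 h over 18751 genes, and 46% and 72% at 72 h over 19670. In that simulation only those genes were changed, and each gene had the same spread in all groups. In the real data 27.8% of all genes passed for WT doxorubicin at 16 h. The recovered shares thus do not give the sensitivity of the tests above. No 2 arrays were identical. Same-numbered arrays deviated together (every correlation over 0.1) for Top2b-/- doxorubicin and PBS at both times (lowest 0.1153) and for Top2b-/- and WT PBS at 72 h (lowest 0.3525), and not in the other comparisons tested.

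Genotype was taken from the titles. By the rule for named genes, the 7 polymerase I genes are given on every 16 h array, of the other members those past the threshold without overlap in WT at 16 h, in other comparisons every member past it (at most 12), and of each comparison list up to 4 genes with the smallest adjusted p, and Myc. Other members given by value were picked with their values in view. The members and lists were chosen with earlier results of these data known. Alternatives were other background corrections, scalings, filters, probe rules, fits, blocks, label readings and array subsets. Promoters came from RefSeq (GRCm38.p6).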

Additional observations from a re-analysis of the deposited data

Results flagged for a closer look

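The response to doxorubicin at 16 h differed between the genotypes for 11 members by a test of the difference itself (limma, 3 arrays per group). On the log2 scale, the Top2b-/- response minus the WT response was 1.21 for Rrn3 and 1.47 for Polr1e. It was -0.95 for Ncl (-0.66 by its second probe, which did not pass) and -0.89 for Npm1, among the nucleolar proteins. In small subunit assembly it was -0.64 for Wdr75, -1.01 for Heatr1, -0.78 for Utp20 and -1.47 for Tsr1. In large subunit assembly it was -0.71 for Gnl2, -1.22 for Gnl3 and -0.90 for Ftsj3. All 11 kept their sign in every alternative run, and with the slide as a block Rrn3, Gnl3 and Heatr1 passed.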

How the results depend on the processing

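The counts of members that passed are given by setting, first for WT doxorubicin minus PBS at 16 h, where 22 passed. The share of all genes that passed stands in brackets, and was 27.8% there. The count was 0 with the 16 h arrays grouped by the genotype characteristic (0%) and 13 without the 4 arrays with differing labels (19.1%). It was 16 to 26 when 1 array was left out (19.4% to 35.4%). At 72 h the same comparison gave 1 (2.69%). It gave 3 under median scaling (4.5%), 0 without a filter on dim probes (0.0631%), 3 with the strict filter (4.6%) and 2 with the mean of probes (2.99%). A fit over all 24 arrays gave 7 (12.3%), the slide block 7 (13.4%) and the replicate block 10 (16.7%). Slide 1 alone gave 0 (3.99%) and Y-linked transcripts as a covariate 0 (0.112%). With 1 array left out it was 0 to 4 (0.00508% to 7.89%). Top2b-/- PBS minus WT PBS at 16 h gave 6 (12.5%), with 12 under normexp background (13.7%) and 1 without a filter (3.66%). The slide block gave 1 (6.51%), the replicate block 3 (10.2%) and slide 1 alone 0 (4.1%). The genotype characteristic gave 0 (0%), the fit without the arrays with differing labels 1 (7.76%) and the Y-linked covariate 3 (9.52%). With 1 array left out it was 0 to 10 (5.1% to 20.4%). At 72 h this comparison gave 1 (2.15%), with 2 under normexp (2.1%), 3 over all 24 arrays (3.09%) and 2 with the slide block (4.04%). It gave 3 with the replicate block (4.62%), 0 on slide 1 alone (3.11%) and 0 on the arrays without Y-linked transcripts (1.28%). The difference of responses at 16 h gave 11, with 6 under median scaling, 4 without a filter, 3 with the slide block, 0 by the genotype characteristic, 4 without the arrays with differing labels, 26 with WT arrays limited to those with and Top2b-/- arrays to those without Y-linked transcripts (WT doxorubicin being 1 array, 34.7% of all genes called), and 5 to 22 with 1 array left out. For the difference of responses at 16 h, 11.4% of all genes passed in the main fit. The share was 9.71% under median scaling, 2.79% without a filter and 1.99% with the slide block. It was 0% by the genotype characteristic, 6.16% without the arrays with differing labels, and 5.39% to 25.3% with 1 array left out. The cause of these shifts was not tested.

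The Top2b-/- response gave 0 members under each alternative run at both times (slide 2 of 16 h alone, with 1 PBS array, says nothing of stability), and the difference of responses gave 0 at 72 h. No called member changed sign under any alternative. The replicate block changed 22 to 20 for WT doxorubicin at 16 h and 11 to 10 for the difference of responses, and 0 members passed with it for Top2b-/- doxorubicin. Whether those numbers pair arrays is not known, and same-numbered arrays deviated together only where stated above. Median scaling moved the median of all genes by over 0.1 log2 for the difference of responses at 16 h (to 0.12, members -0.27) and for WT doxorubicin at 72 h (to -0.18, members -0.20). Slide 2 of 72 h holds 1 array per group and gave no value. With 1 array left out, the values of the "Top2b check, 16 h" ran from -1.29 to -1.13 and those of the "Top2b check, 72 h" from -1.03 to -0.84.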
